A study of Mus musculus with 4 samples.

Results

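The interferon-stimulated effector genes described here are 56 named genes that cells switch on when an interferon binds its receptor. They are a list of symbols, set with earlier results of these data known, from the 19737 genes of the deposited table. All 56 were found, and all 56 passed the filter on low counts that left 14058 of the 19435 genes with at least 1 count for testing.

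Interferons are secreted alarm proteins of the innate immune system. Type I interferons such as interferon-β bind a receptor on the same or a neighbouring cell, and the kinases JAK1 and TYK2 then activate a transcription factor complex that binds a short DNA element, the interferon-stimulated response element (ISRE), in front of the target genes. The products of these genes block viral RNA, tag proteins, stop viruses from entering or leaving the cell, or sense foreign nucleic acid. In the brain a minority of microglia, the resident macrophages, carry this programme, and its share has been described to grow with ageing and amyloid.

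The study compared single microglia from 20 mice in 5 groups of 4. All mice carried a knock-in of the apical domain of the human transferrin receptor in the mouse gene (TfRmu/hu, homozygous in the deposited annotation), which lets an antibody transport vehicle (ATV) that binds this receptor carry its cargo over the blood-brain barrier. The 2 genotypes were wild type (WT) and AppSAA, a knock-in of a humanised amyloid precursor protein gene with Swedish, Arctic and Austrian mutations that develops amyloid plaques. A single intravenous dose of 10 mg/kg was given, brains were taken after 24 h, and CD11b+ cells were sorted. WT mice received the isotype control (ATV:ISO) or ATV:4D9, in which 4D9 is an activating antibody against mouse TREM2, a microglial surface receptor. AppSAA mice received ATV:ISO, 4D9 without the vehicle, or ATV:4D9. The study's summary of animals has an entry of 8 months for male mice that names both WT and AppSAA, and one of 2 to 8 months for WT TfRmu/hu mice of both sexes, and does not tie them to experiments. The annotation names 1 female, the WT ATV:ISO mouse of pool 4. Each of 4 pools held 1 mouse of each group, so that a pool number names a mouse within its group.

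The 74758 cells (2193 to 6126 per mouse) held 17150296 to 102446549 unique molecular identifiers (UMIs, each 1 captured RNA molecule) per mouse. Depth moved with the antibody, since the median was 6859 to 8174 UMIs per cell in WT ATV:ISO mice and 13479 to 17290 in the 2 ATV:4D9 groups. The median mitochondrial percent per cell was 1.01 to 1.52 in WT ATV:ISO mice. It was 1.21 to 2.01 in WT ATV:4D9 and 1.19 to 1.83 in AppSAA ATV:ISO mice, each above WT ATV:ISO in every pool. Whether this bears on the members was not tested. The 10 microglial markers summed to 33937 to 47151 CPM in each mouse (counts scaled to a common library total). The marker lists of border macrophages, monocytes, neutrophils, T and NK cells, B cells, astrocytes, oligodendrocytes, neurons and endothelial cells summed to at most 52.4 CPM each in any mouse. The list of plasmacytoid dendritic cells, which are strong interferon producers, reached 1449 CPM through Siglech, a gene of microglia too, while Ccr9 was at most 0.304 CPM in a group. The monocyte list had its highest values in AppSAA ATV:4D9 mice (9.42 to 12.9 CPM against 3.88 to 9.94 CPM in the other groups). Of that list Plac8 reached 9.01 CPM there and Ly6c2 stood at 0.134 CPM, while under ATV:ISO the endothelial list summed to 37.5 to 52.4 CPM in AppSAA and 18.3 to 24.5 CPM in WT mice, and the T and NK cell list to 1.44 to 1.96 CPM and 0.244 to 0.767 CPM. With ATV:4D9 the endothelial list summed to 9.54 to 13.1 CPM in WT and 13.2 to 26.2 CPM in AppSAA mice. The list with Siglech stood at 520 to 628 CPM in WT ATV:4D9 and 1176 to 1449 CPM in WT ATV:ISO mice. The T and NK cell list summed to 0.233 to 0.750 CPM in AppSAA ATV:4D9 mice. The part of these transcripts in the results was not tested. In all, 543 barcode sequences occurred in more than 1 pool, in 1089 cells.

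The members lie on 15 chromosomes of GRCm38, and 29 of them stand in 10 groups of neighbours within 500 kb of each other. The interferon-inducible p200 genes Ifi213, Ifi209, Ifi207, Ifi204 and Ifi211 span chr1:173566283-173913046. The IFIT genes Ifit2, Ifit3, Ifit3b and Ifit1 span chr19:34550694-34650009, and Oas2, Oas3, Oas1g and Oas1a span chr5:120730333-120907521. The annotation lists 55 members as protein coding and Mx2 as a polymorphic pseudogene. Reads of near-identical copies can be split or lost in counting, so the single values are uncertain for Ifit3 and Ifit3b (97.8% identical over the aligned bases), Oas1a and Oas1g (97.5%), Ifi204 and Ifi211 (96.9%), Mx1 and Mx2 (94.8%), Phf11b and Phf11d (92.8%), Ifi204 and Ifi207 (91.8%) and Ifi207 and Ifi211 (91.7%). Ifi211, Uba7 and Ifi47 also overlap another gene on the same strand.

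Letters that match an ISRE core lie in front of some members. A core of 2 copies of the letters GAAA with any 2 bases between them on the gene strand, or 2 copies of TTTC spaced alike when it lies on the other strand, was found within 250 bases before the start of 19 of the 46 members with a promoter sequence (41.3%), against 936 of 27025 genes (3.46%). Another motif that was searched, GAS (TTCNNNGAA, where N is any base), was found in 4 of the 46 (8.70%), near the 8.13% of all genes. No promoter sequence was at hand for Mx1, Mx2, Oas2, Usp18, Rtp4, Ifi27l2a, Parp9, Parp14, Ifi204 and Tor3a. The stretches below, written on the gene strand from RefSeq on GRCm38.p6, show the core in capitals for 8 members, which were chosen after the matches were seen from the genes described in detail and the pairs of copies. A match describes letters and is not a measured binding site.
Ifit1, chr19:34640770-34640828, plus strand: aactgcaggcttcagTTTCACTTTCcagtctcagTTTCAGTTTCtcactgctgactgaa
Ifit3, chr19:34583358-34583431, plus strand: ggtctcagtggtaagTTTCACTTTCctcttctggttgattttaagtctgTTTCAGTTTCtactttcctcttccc
Ifit3b, chr19:34607754-34607827, plus strand: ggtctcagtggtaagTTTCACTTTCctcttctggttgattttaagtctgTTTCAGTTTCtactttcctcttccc
Isg15, chr4:156200860-156200911, minus strand: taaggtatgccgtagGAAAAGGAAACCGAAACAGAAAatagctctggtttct
Bst2, chr8:71537572-71537617, minus strand: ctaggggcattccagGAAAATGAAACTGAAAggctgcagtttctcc
Rsad2, chr12:26456548-26456587, minus strand: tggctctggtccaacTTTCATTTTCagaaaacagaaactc
Oas1a, chr5:120907526-120907560, minus strand: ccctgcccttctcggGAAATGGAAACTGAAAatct
Oas1g, chr5:120887614-120887646, minus strand: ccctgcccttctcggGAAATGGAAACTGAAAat

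The stretch of Ifit3 and that of its copy Ifit3b were letter for letter the same, as were the shared bases of Oas1a and Oas1g. Isg15 carried 3 overlapping matches in 1 run. The first printed base lies 119 bases before the start of Ifit1, 93 before that of Isg15 and 35 before that of Oas1a.

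In the summed RNA of each mouse the members made up a small but clearly graded share. Their UMIs were 0.166%, 0.181%, 0.177% and 0.192% of all UMIs in the WT ATV:ISO mice of pools 1 to 4, and 0.440%, 0.292%, 0.312% and 0.341% in the WT ATV:4D9 mice. In AppSAA mice the mean share was 0.238% ± 0.017 with ATV:ISO, 0.222% ± 0.011 with 4D9 and 0.784% ± 0.091 with ATV:4D9 (SD, n = 4 each). No mouse of either ATV:4D9 group fell into the range of the groups without it, and no WT ATV:4D9 mouse reached the lowest AppSAA ATV:4D9 mouse (0.660%). A sum over all cells of a mouse cannot tell fewer or more cells of a kind from less or more RNA per cell, so levels within clusters of cells are given further on.

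**Figure D1:**
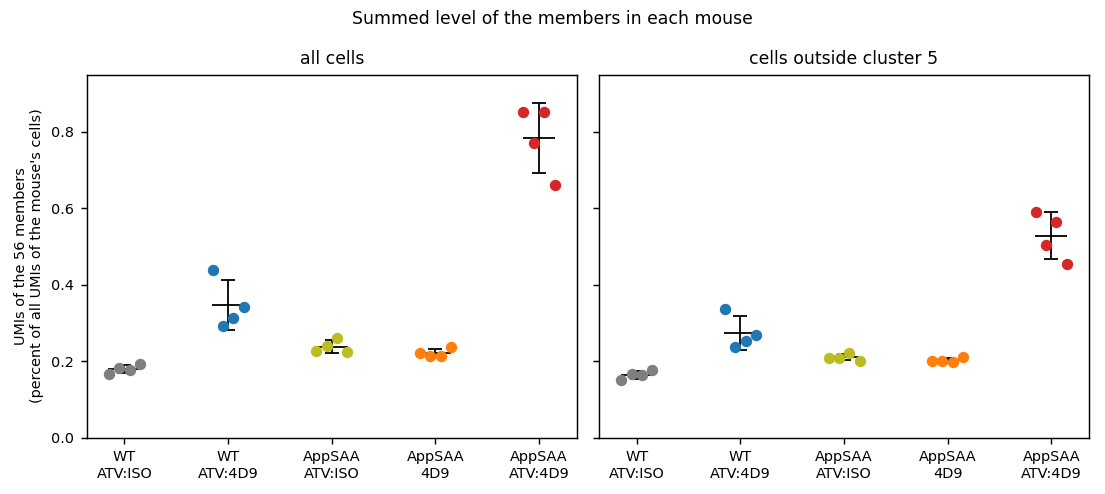
UMIs of the 56 members as a percent of all UMIs of a mouse, in all cells (left) and in cells outside cluster 5 (right). Each point is 1 mouse and the bar is the mean ± SD of 4 mice; the AppSAA ATV:4D9 mice lie highest in both panels, with means of 0.784% and 0.528%.

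ATV:4D9 raised most members in WT mice, which have no plaques. Of 56 members 46 rose and 4 fell at an adjusted p under 0.05 (edgeR quasi-likelihood test), where 30.8% of all genes tested rose and 32.5% fell. The median log2 fold change of the members was 1.25, against -0.05 over all genes tested. For 41 members every ATV:4D9 mouse lay above every ATV:ISO mouse (24.3% of all genes). Rises and falls here are changes in a gene's share of the library. UMIs per cell were higher under ATV:4D9, and copies of a transcript per cell were not tested.

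The 4 IFIT genes, whose proteins bind foreign-looking RNA caps and block translation, rose together, by 2.09 to 2.78 on the log2 scale. Ifit3 stood at 23.5, 22.5, 18.5 and 22.4 CPM in the ATV:ISO mice and at 150, 75.4, 91.8 and 97.1 CPM in the ATV:4D9 mice. The groups did not overlap, and the rise was 2.38 ± 0.23 (log2 fold change ± SE, adjusted p = 2.12e-08). Ifit2 rose by 2.78 ± 0.20 (adjusted p = 2.41e-10).

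Among the 5 genes of ISG15 modification, a ubiquitin-like tag, 4 rose and 1 fell. Isg15 itself, the tag, stood at 40.8, 28.3, 40.2 and 36.6 CPM under ATV:ISO and at 307, 148, 182 and 189 CPM under ATV:4D9. The mouse of pool 1 was the highest here as for Ifit3, and no mice overlapped (log2 fold change 2.64 ± 0.24, adjusted p = 1.32e-08). Usp18, which removes the tag and also damps the interferon receptor, rose by 2.39 ± 0.22 (adjusted p = 8.56e-09), and Herc6, the mouse ligase that attaches the tag, rose by 0.73 ± 0.11. Uba7, which activates the tag for transfer, went the other way. Its CPM was 25.3, 26.5, 34.5 and 34.6 under ATV:ISO and 18.1, 18.2, 22.0 and 23.4 under ATV:4D9. The groups did not overlap and Uba7 fell by 0.45 on the log2 scale (SE 0.12, adjusted p = 0.00367).

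All 8 members of the OAS and RNA decay group rose, with a median log2 fold change of 1.80. The OAS enzymes make the messenger that activates the RNA-cutting enzyme RNase L. Oasl2 stood at 6.47, 7.91, 9.93 and 10.7 CPM under ATV:ISO and at 42.1, 23.6, 28.2 and 32.1 CPM under ATV:4D9. There was no overlap, and the log2 fold change was 1.97 ± 0.19 (adjusted p = 2.63e-08). Oasl1, a relative without that activity that is known to restrain the translation of Irf7, rose by 2.92 ± 0.33, and Pnpt1, an RNA-degrading enzyme of mitochondria, by 1.01 ± 0.10. The antiviral GTPases Mx1 (1.53 ± 0.18), Mx2 and Ifi47 also rose, 3 of 3.

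The 5 genes of membranes and nucleotide metabolism all rose, by 1.59 to 3.01. Rsad2, or viperin, an enzyme that makes a chain-terminating nucleotide, had the largest log2 fold change of all members in WT mice (3.01 ± 0.31, adjusted p = 5.47e-08). Ifitm3, which hinders the fusion of viruses with endosomes, stood at 75.0, 67.1, 65.8 and 74.7 CPM under ATV:ISO and at 423, 188, 218 and 235 CPM under ATV:4D9, a rise of 2.05 ± 0.23 (adjusted p = 1.52e-07). Bst2, or tetherin, which holds budding viruses at the cell surface, stood at 244, 239, 204 and 220 CPM and at 848, 531, 533 and 606 CPM, a rise of 1.60 ± 0.17 (adjusted p = 1.24e-07). For both genes each ATV:4D9 mouse was above all ATV:ISO mice.

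The PARP and TRIM genes moved least. Of the 7, which code for ADP-ribosyl transferases and ubiquitin ligases, 4 rose, 2 fell and Trim30d did not pass the test, and their median log2 fold change was 0.28. Parp14 rose by 0.37 ± 0.09 (adjusted p = 0.00194), but without the cells of cluster 5 its value was 0.09 (adjusted p = 0.377), and it was not called with library totals. Dtx3l, the partner of Parp9 in 1 ligase complex, stood at 33.3, 47.3, 48.1 and 39.0 CPM under ATV:ISO and at 27.1, 27.7, 27.0 and 27.6 CPM under ATV:4D9. All ATV:4D9 mice were lower in this share of the library, and Dtx3l fell by 0.49 (SE 0.09, adjusted p = 7.97e-05). Trim21, an intracellular antibody receptor, fell by 0.34 (SE 0.10, adjusted p = 0.00572).

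Of the 9 DNA-binding and nuclear genes 8 rose, Daxx being the exception, and their median was 1.37. Of the 3 Schlafen genes, Slfn2 and Slfn5 rose and Slfn8 fell by 0.37 (SE 0.11, adjusted p = 0.00609), although the ATV:ISO mouse of pool 1 (37.4 CPM) lay within the ATV:4D9 range of 35.8 to 38.8 CPM. Among the other members not called were Nmi, Epsti1, Znfx1 and Ifi27l2a. The last, which codes for a small hydrophobic protein of the Ifi27 family, had 56.2, 97.0, 54.4 and 70.8 CPM under ATV:ISO and 128, 75.5, 66.0 and 82.7 CPM under ATV:4D9. The groups overlapped and the log2 fold change was 0.47 ± 0.23 (adjusted p = 0.0793). With the pool as a block, Ifi27l2a (adjusted p = 0.0388), Daxx, Nmi and Znfx1 were called as well. For sums over all cells, the share of all genes called with this block is given here only for the interaction.

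**Figure D2:**
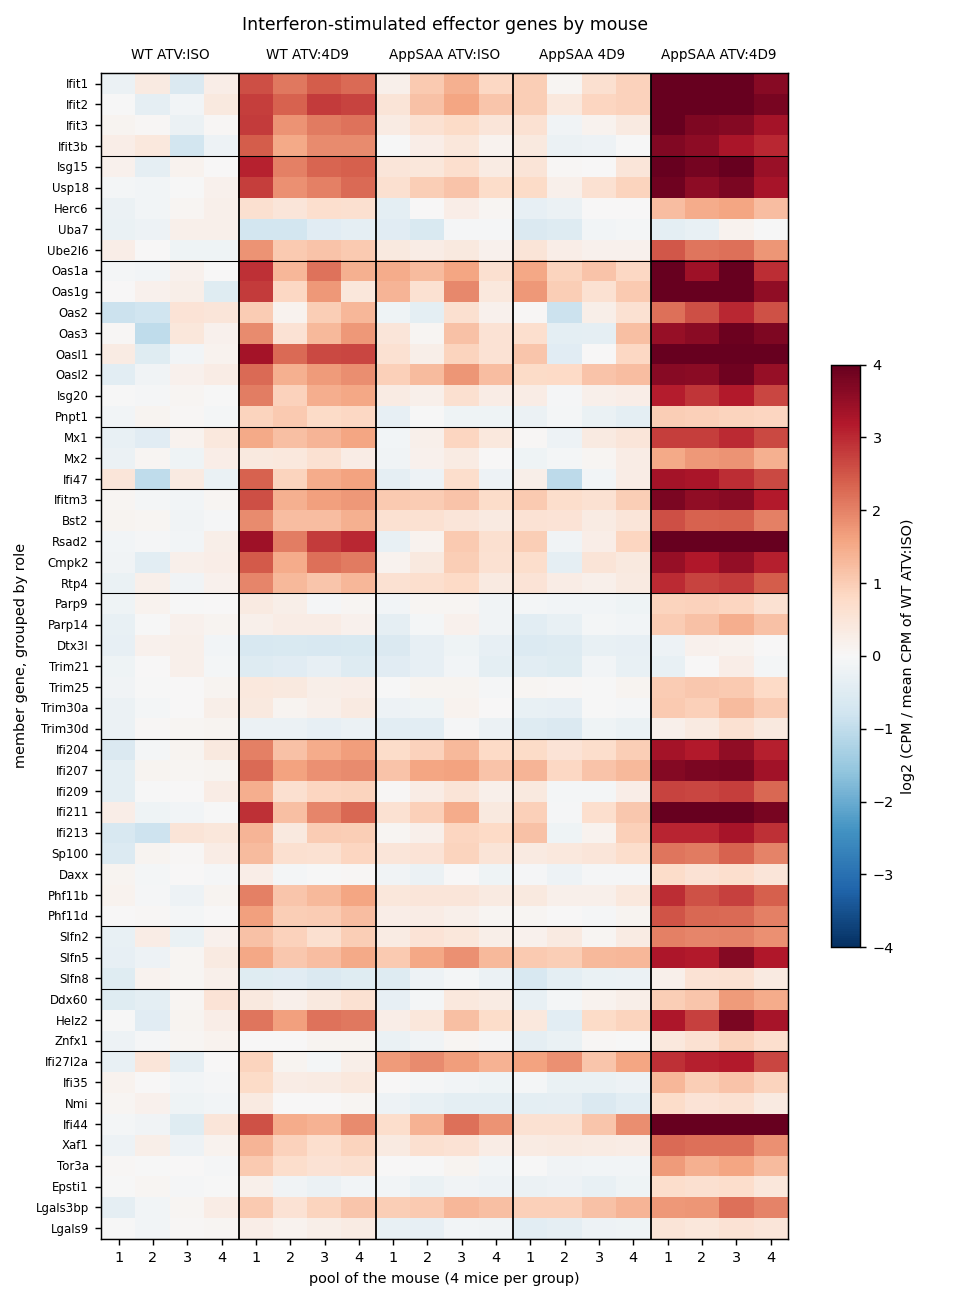
CPM of each member in each mouse, as log2 of the ratio to the mean of the WT ATV:ISO mice, with members grouped by role and 4 mice (pools 1 to 4) per group; the end colours also hold values beyond 4. The AppSAA ATV:4D9 columns are the most raised, the AppSAA ATV:ISO and 4D9 columns differ little, and Uba7, Dtx3l, Trim21 and Slfn8 are pale blue in WT ATV:4D9.

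Amyloid genotype alone went with a smaller rise of fewer members. In AppSAA against WT mice, both with ATV:ISO, 25 of 56 members rose and 0 fell, where 14.4% of all genes rose and 13.7% fell. The median log2 fold change was 0.57, against -0.06 over all genes. Every AppSAA mouse lay above every WT mouse for 23 members (9.50% of all genes), and every AppSAA mouse lay below for Nmi (26.3 to 30.1 against 31.1 to 39.0 CPM) and Epsti1 (59.9 to 67.0 against 70.2 to 76.2 CPM). In all, 10 members were higher in AppSAA mice in 0 of 4 pools. The share over all genes was not computed for members wholly below or for the pool count, so these describe the members only. These ranges and the pool count use CPM, scaled to library totals, while the fit scaled libraries by TMM (trimmed means of log ratios). Fitted to library totals instead, an alternative added after the data were seen, 20 members rose and 5 fell, where 10.8% of all genes rose and 37.5% fell, with a median of 0.38 against -0.24 over all genes, so the direction of the smaller changes between genotypes depends on the scaling.

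The genes that led here were partly others than those that led with ATV:4D9. Ifi27l2a stood at 226, 255, 224 and 183 CPM in the AppSAA ATV:ISO mice, all above the highest WT ATV:ISO mouse (97.0 CPM). Its log2 fold change was 1.86 ± 0.23 (adjusted p = 4.07e-06). Lgals3bp, a secreted galectin-binding protein, stood at 258, 265, 323 and 301 CPM against 101, 119, 136 and 160 CPM in WT, a rise of 1.34 ± 0.13 (adjusted p = 1.39e-07).

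Ifi44 rose by 1.79 ± 0.39 from a low level (0.31 to 0.60 CPM in WT and 0.69 to 1.96 CPM in AppSAA mice). Slfn5 rose by 1.63 ± 0.17 and Oasl2 by 1.51 ± 0.19 (adjusted p = 4.81e-06). Among the genes that ATV:4D9 moved most in WT, Isg15 rose by 0.67 ± 0.23 (adjusted p = 0.0371) and Ifit3 by 0.74 ± 0.22 (adjusted p = 0.0171), while Rsad2 (0.66) and Oasl1 (0.78) did not pass the test. Ifit2, another of these genes, stood at 16.5 to 34.4 CPM in AppSAA and 8.93 to 15.1 CPM in WT mice, without overlap. With the pool as a block Oasl1 (adjusted p = 0.0296) and Trim25 (adjusted p = 0.0214), of the PARP and TRIM genes, were called. Ifitm3 rose by 1.17 ± 0.22, Bst2 by 0.71 ± 0.17 and Usp18 by 1.07 ± 0.21, each with AppSAA higher in 4 of 4 pools. By group, 4 of 5 membrane and metabolism genes, 5 of 9 DNA-binding and nuclear genes and 3 of 4 IFIT genes rose, but 0 of 7 PARP and TRIM genes (1 of 7 at an unadjusted p under 0.05, as were 39.1% of all genes). Isg15 (0.43, adjusted p = 0.189) and Ifit3 (0.55, adjusted p = 0.0752) were no longer called without the cells of cluster 5. Isg15 was also not called with library totals or when any of 6 of the 8 mice was left out, nor Ifit3 without the WT ATV:ISO mouse of pool 3. Without the cells of cluster 5, 19 members and 14.5% of all genes rose.

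In AppSAA mice ATV:4D9 raised nearly the whole set. Of 56 members 55 rose and 0 fell against ATV:ISO, where 27.9% of all genes rose and 27.1% fell, and the median log2 fold change was 2.05 (all genes -0.03). In 53 members no ATV:4D9 mouse overlapped an ATV:ISO mouse (22.9% of all genes). Uba7 was the exception, at 23.1, 24.4, 33.0 and 29.7 CPM against 21.9, 20.01, 29.2 and 29.0 CPM. Its ranges overlapped although ATV:4D9 was higher in 4 of 4 pools, and the log2 fold change of 0.21 ± 0.12 was not called (adjusted p = 0.157), but was with the pool as a block (adjusted p = 0.000253).

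Oasl1 had the largest log2 fold change (3.96 ± 0.29, adjusted p = 6.1e-10) and Rsad2 the next (3.88 ± 0.30). Isg15 stood at 51.1, 49.4, 57.5 and 46.1 CPM under ATV:ISO and at 757, 520, 595 and 401 CPM under ATV:4D9, a rise of 3.57 ± 0.25, or 11.9-fold (adjusted p = 3.78e-10). Ifit3 went from 27.0, 33.3, 36.7 and 30.7 CPM to 355, 288, 279 and 217 CPM (3.24 ± 0.23, adjusted p = 4.37e-10). For both genes the lowest ATV:4D9 mouse lay far above the highest ATV:ISO mouse.

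Usp18 rose by 2.85 ± 0.21, Ifitm3 by 2.64 ± 0.23, Oasl2 by 2.40 ± 0.18 and Bst2 by 1.91 ± 0.18 (highest adjusted p of the 4, 1.83e-08). The group with the smallest median was again PARP and TRIM (0.91), but here all 7 rose. Dtx3l, which had fallen in WT, rose by 0.46 ± 0.09 (adjusted p = 0.000236) and Trim21 by 0.36 ± 0.10 (adjusted p = 0.00347). Both were not called without the cells of cluster 5 (0.09 and 0.05). Slfn8, the other that changed direction, rose by 0.76 ± 0.11.

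Without the vehicle, 4D9 gave no detectable change of the members. With 4D9 against ATV:ISO in AppSAA mice, edgeR called 0 of 56 members and 0.0% of all genes, 0 members and 0.562% of all genes had an unadjusted p under 0.05, and DESeq2 and limma-voom also called 0 members. Isg15 stood at 52.1, 37.8, 36.6 and 51.3 CPM under 4D9, against 46.1 to 57.5 CPM under ATV:ISO. The ranges overlapped for this gene, as they did for the other 55 (0.32% of all genes had every 4D9 mouse above every ATV:ISO mouse), and the log2 fold change was -0.19, with a 95% interval of -0.64 to 0.27. Ifit3 had -0.27 (-0.69 to 0.16), Usp18 -0.24 (-0.64 to 0.15), Oasl2 -0.33 (-0.67 to 0.02), Ifitm3 -0.13 (-0.55 to 0.30) and Bst2 -0.03 (-0.36 to 0.31). Fitted values ran from -0.48 (Ifi44) to 0.08 (Rsad2) with a median of -0.12 (all genes 0.00). Of the 56, 5 were fitted above 0 and the rest below, and 9 members were lower under 4D9 in 4 of 4 pools while 0 were higher in all 4. The share over all genes was not computed for these pool counts, so they describe the members only. All 56 intervals held 0, with bounds no further out than -1.07 and 0.86. They come from the fit that ignores the pools, and with the pool as a block 0 members were called too.

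Against 4D9, ATV:4D9 raised 55 of 56 members in AppSAA mice, where 27.6% of all genes rose and 26.7% fell, with a median log2 fold change of 2.27. In 54 members no mice overlapped (23.0% of all genes). Isg15 was higher by 3.75 ± 0.25 (adjusted p = 2.14e-10), Ifit3 by 3.51 ± 0.23, Usp18 by 3.09 ± 0.21, Ifitm3 by 2.77 ± 0.23, Oasl2 by 2.73 ± 0.19 and Bst2 by 1.93 ± 0.18. These values share their ATV:4D9 mice with the comparison against ATV:ISO. Uba7 was again not called (0.23 ± 0.12, adjusted p = 0.118, and 0.000116 with the pool as a block).

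Under the same ATV:4D9 the members stood higher in AppSAA than in WT mice. Of 56 members 55 rose and 0 fell, where 7.84% of all genes rose and 3.98% fell, and the median log2 difference was 1.39 (all genes -0.01). For 53 members no mice overlapped (5.52% of all genes). Ifi27l2a differed most, at 524, 603, 628 and 439 CPM in AppSAA against 66.0 to 128 CPM in WT (2.77 ± 0.24, adjusted p = 1.39e-07), followed by Oas1g (2.54 ± 0.40) and Ifi44 (2.38 ± 0.27). Oasl2 was higher by 1.94 ± 0.18, Ifitm3 by 1.77 ± 0.22, Isg15 and Ifit3 by 1.60 each (SE 0.23 and 0.22), Usp18 by 1.53 ± 0.19 and Bst2 by 1.02 ± 0.17, with no overlap for any of these 6 genes.

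Pnpt1 was the member not called. It had 26.8, 30.2, 24.8 and 26.0 CPM in WT and 28.8, 28.3, 27.2 and 26.1 CPM in AppSAA mice with ATV:4D9, a log2 difference of 0.18 ± 0.10 (adjusted p = 0.294, and 0.0249 with the pool as a block). The ATV:4D9 ranges overlapped between genotypes, while each lay above its own isotype mice, which had 13.6 to 15.7 CPM in WT and 11.6 to 14.3 CPM in AppSAA.

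Whether ATV:4D9 moved a member by a different amount in the 2 genotypes was tested as an interaction. The difference between the genotypes' log2 fold changes was above 0 in 55 of 56 members, and 25 were called higher and 0 lower, where 3.79% of all genes were called higher and 5.35% lower. The median difference was 0.69. Lgals3bp was the 1 member fitted below 0 (-0.18 ± 0.18, adjusted p = 0.622).

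The 7 PARP and TRIM genes were all among those called. Parp14 stood at 56.5, 68.7, 77.9 and 75.0 CPM in WT ATV:ISO and at 80.0, 85.7, 85.9 and 79.1 CPM in WT ATV:4D9, and it went from 54.1, 65.6, 78.7 and 62.9 CPM to 142, 156, 192 and 155 CPM in AppSAA mice. Neither step left an overlap, the AppSAA step was the larger, and the difference of the 2 log2 steps was 1.00 ± 0.13 (adjusted p = 6.99e-05). Dtx3l (0.95 ± 0.13), Trim21 (0.70 ± 0.14), Uba7 (0.65 ± 0.17) and Slfn8 (1.13 ± 0.15), the 4 members that fell in WT, were called too, Uba7 not with library totals, without the cells of cluster 5 or without any of 4 single mice. The largest differences were those of Ifi213 (1.53 ± 0.42), Oas2 (1.53 ± 0.43) and Ifi209 (1.29 ± 0.26, adjusted p = 0.00281), of which Ifi213 and Oas2 were not called without the cells of cluster 5 or without some single mice.

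For many members the difference between genotypes did not pass the test, the leading ones in WT mice included. Rsad2 (0.87 ± 0.41, adjusted p = 0.216), Oasl1 (1.04 ± 0.44, adjusted p = 0.169) and Ifit2 (0.27 ± 0.26, adjusted p = 0.614) were not called. Isg15 (0.93 ± 0.33, adjusted p = 0.0816), Ifit3 (0.86 ± 0.31, adjusted p = 0.0868), Ifitm3 (0.60 ± 0.31), Usp18 (0.46 ± 0.29), Oasl2 (0.43 ± 0.26) and Bst2 (0.31 ± 0.24) were not called either. This count turned on the fit and on 1 mouse. With the pool as a block 40 members were called, where 30.5% of all genes were, with Isg15 (adjusted p = 0.00442), Ifit3 (0.0114), Oasl1 (0.028) and Ifitm3 (0.0381) among them. Without the WT ATV:4D9 mouse of pool 1, the highest of its group for Isg15, Ifit3, Ifitm3 and Bst2, 39 were called (3.21% of all genes were called higher). Without the cells of cluster 5, 16 were called (2.47% of all genes were called higher).

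**Figure D3:**
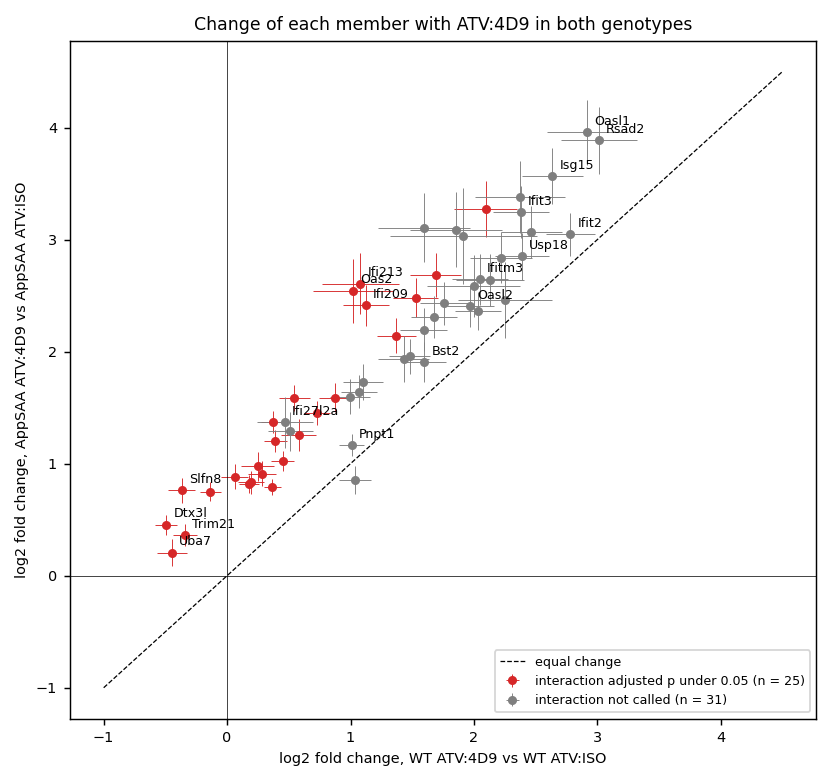
Log2 fold change of each member with ATV:4D9 against ATV:ISO in WT (x axis) and AppSAA mice (y axis), with bars of ± 1 SE and a dashed line of equal change; red marks the 25 members with a called interaction. All points but that of Lgals3bp lie above the line, and Uba7, Dtx3l, Trim21 and Slfn8 lie left of 0.

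The members' levels were highest in 1 cluster of cells. The authors sorted all cells into 6 clusters by their expression. Which of these genes entered the clustering is not stated, so a higher level in a cluster may describe the clustering and was not tested. In cluster 5 every one of the 56 members had its highest median over mice (17 mice with at least 20 cells of the cluster). Against cluster 0, the largest in WT ATV:ISO mice, 53 members were more than 2-fold, 40 more than 5-fold and 29 more than 10-fold higher, with a median ratio of 11.3. The shares over all genes were not computed for these cluster counts, so they describe the members only.

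The ratio was largest for Rsad2 (122), Ifi211 (122), Ifi44 (120), Oas3 (97.8) and Oasl1 (89.9). It was smallest for Lgals9 (1.82), Trim21 (1.68) and Uba7 (1.54). The ratios of Ifi44 and Oas3 rest on low levels, since WT ATV:ISO mice had at most 0.60 and 1.07 CPM of them over all cells. Isg15 stood at a median of 24.9 CPM in cluster 0, 33.7 in cluster 1, 102 in cluster 2, 30.6 in cluster 3, 80.5 in cluster 4 and 1314 in cluster 5. Ifi27l2a had another profile, with medians of 67.8, 299, 190, 90.7, 434 and 789 CPM in clusters 0 to 5, over sets of mice that differ between clusters (20 mice in cluster 0 and 16 in clusters 1 and 4). The monocyte list summed to a median of 30.4 CPM in cluster 5, of which Plac8 made up 27.7 CPM, while Ly6c2 was at 0.0 CPM.

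A set of 11 members, picked out after their values were seen, stood lower in clusters 1, 2 and 4 than in cluster 0. It held Ddx60, Dtx3l, Epsti1, Lgals9, Parp14, Slfn8, Trim21, Trim30a, Trim30d, Uba7 and Znfx1. Dtx3l, for example, had a median of 40.0 CPM in cluster 0, 24.8 in cluster 2, 22.8 in cluster 4 and 93.6 in cluster 5. With ATV:4D9 in WT mice, where clusters 2 and 4 held 47.8% and 40.0% of the cells on average and cluster 0 held 3.11% (60.4% with ATV:ISO), 4 of the 11 rose, 4 fell and 3 were not called, where 30.8% of all genes rose and 32.5% fell. Of the other 45 members 42 rose and 0 fell, but most cells of clusters 2 and 4 came from ATV:4D9 mice, so the choice of the 11 and their change share these cells. The part of the shift between clusters in the fall of Dtx3l, Uba7, Trim21 and Slfn8 was not tested. Within cluster 0 the log2 fold changes with ATV:4D9 in WT mice were -0.20 ± 0.17 for Dtx3l, -0.12 ± 0.22 for Uba7, -0.03 ± 0.27 for Trim21 and -0.16 ± 0.16 for Slfn8, none of them called, with 60 to 186 cells per ATV:4D9 mouse.

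**Figure D4:**
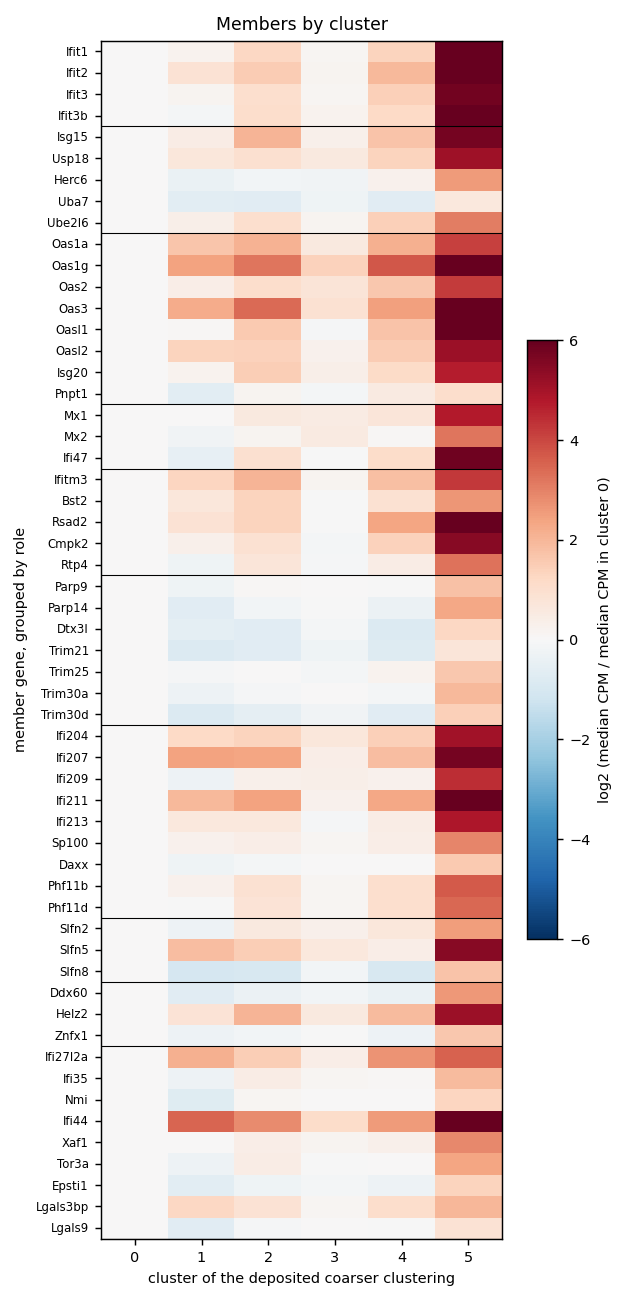
Median CPM of each member in each of the 6 clusters over mice with at least 20 cells, as log2 of the ratio to cluster 0, with members grouped by role; the end colours also hold values beyond 6. Cluster 5 is the most raised for every member, and 11 members, Dtx3l, Slfn8 and Uba7 among them, are blue in clusters 1, 2 and 4.

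Cluster 5 held 0.737% ± 0.223 of the cells in WT ATV:ISO mice, 4.21% ± 1.02 in WT ATV:4D9, 2.48% ± 1.05 in AppSAA ATV:ISO, 1.504% ± 0.271 in AppSAA 4D9 and 22.4% ± 4.3 in AppSAA ATV:4D9 mice (SD, n = 4 each). It held a larger share of the members' UMIs than of the cells in each group, at 9.32%, 24.3%, 13.8%, 10.1% and 47.2% in the same order. Hence more than 50% of the members' UMIs lay outside cluster 5 on average, also in AppSAA ATV:4D9 mice, where the share inside it ran from 43.7% to 51.8% between mice.

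Outside cluster 5 the members made up 0.164% ± 0.011 of UMIs in WT ATV:ISO, 0.274% ± 0.044 in WT ATV:4D9, 0.210% ± 0.008 in AppSAA ATV:ISO, 0.202% ± 0.006 in AppSAA 4D9 and 0.528% ± 0.061 in AppSAA ATV:4D9 mice. The order of the groups was that of all cells, and AppSAA ATV:4D9 mice (0.455% to 0.591%) did not overlap any other group. With cluster 5 left out, 40 members rose and 5 fell with ATV:4D9 in WT mice (30.8% of all genes rose and 32.3% fell), and 53 rose with ATV:4D9 in AppSAA mice (27.8%).

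**Figure D5:**
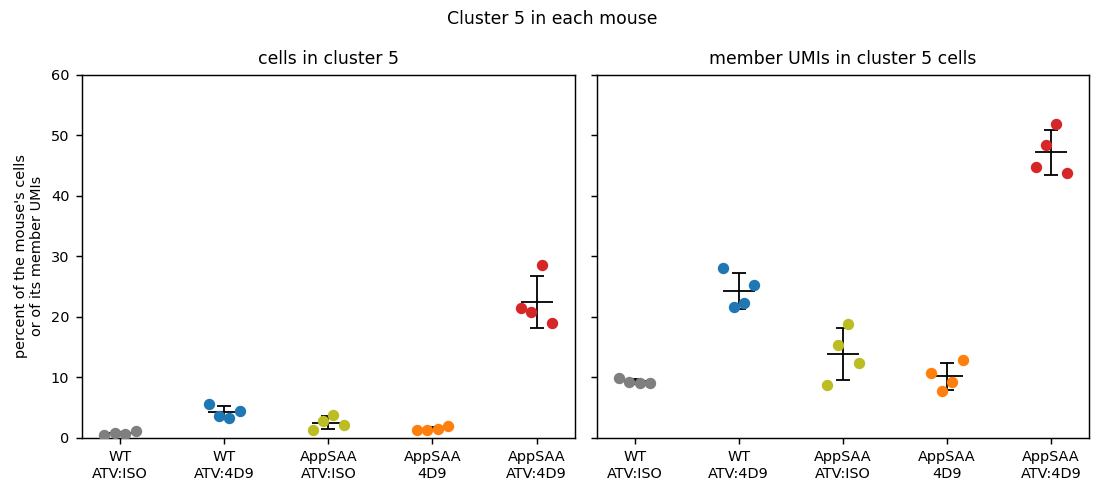
Percent of each mouse's cells that lie in cluster 5 (left) and percent of its member UMIs that come from those cells (right); each point is 1 mouse and the bar is the mean ± SD of 4 mice. AppSAA ATV:4D9 mice are highest in both panels, with means of 22.4% and 47.2%.

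Within single clusters the members still differed between groups in part. In cluster 0, 52 members had counts enough for a test, and with ATV:4D9 in WT mice edgeR called 0 of them (1.02% of all genes rose and 0.453% fell). Of the 52, 10 had an unadjusted p under 0.05 (13% of all genes), limma-voom called 0, and with the pool as a block 5 were called, and 8.96% of all genes (Bst2, Lgals3bp, Lgals9, Phf11b and Slfn2). Few cells of cluster 0 remained under ATV:4D9, 60 to 186 per WT mouse against 1255 to 1897 under ATV:ISO. Bst2 had a log2 fold change of 0.41 ± 0.12 (adjusted p = 0.0997) and Isg15 of 0.24 ± 0.21 there.

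Between AppSAA and WT mice with ATV:ISO, 7 members rose within cluster 0, where 0.222% of all genes rose and 0.0513% fell. They were Oasl2 (1.02 ± 0.20), Rtp4 (0.89 ± 0.14), Slfn5 (0.86 ± 0.17), Ifi27l2a (0.84 ± 0.16), Ifi204 (0.81 ± 0.15), Slfn2 and Sp100. With the pool as a block 22 were called (4.61% of all genes), and without the AppSAA ATV:ISO mouse of pool 3 only 2 were, Oasl2, Slfn5, Ifi204 and Slfn2 being among those lost. With ATV:4D9 in AppSAA mice 13 members rose in cluster 0 (0.53% of all genes rose and 0.137% fell), led by Ifi27l2a (1.55 ± 0.17), Slfn5 (1.53 ± 0.23) and Ifitm3 (1.37 ± 0.18). That count was 21 with the pool as a block (5.27% of all genes). It was 6 without the AppSAA ATV:4D9 mouse of pool 2 or of pool 4, and 8 without the AppSAA ATV:ISO mouse of pool 2 or of pool 4. Cluster 0 held only 37 to 195 cells per AppSAA ATV:4D9 mouse, against 1070 to 1930 per AppSAA ATV:ISO mouse.

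In cluster 1, which held 38.3% of the cells of AppSAA ATV:ISO mice and 13.5% of those with ATV:4D9, 40 of 56 members rose with ATV:4D9, where 0.92% of all genes rose and 0.422% fell. The median log2 fold change was 1.01. Ifi211 rose by 1.90 ± 0.28, Isg15 by 1.86 ± 0.22, Ifit3 by 1.84 ± 0.21, Oasl2 by 1.49 ± 0.14, Ifitm3 by 1.46 ± 0.21 and Usp18 by 1.28 ± 0.14. Bst2, at 0.54 ± 0.14, did not pass (adjusted p = 0.0679), and with the pool as a block 53 members, Bst2 included, did (7.25% of all genes).

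In cluster 2, the main cluster of ATV:4D9 mice, 45 of the 50 members tested stood higher in AppSAA than in WT mice given ATV:4D9 and 0 stood lower (1.94% and 0.125% of all genes). Ifi27l2a differed by 2.23 ± 0.30, Oasl2 by 1.69 ± 0.17, Ifitm3 by 1.45 ± 0.24, Isg15 and Ifit3 by 1.41 each (SE 0.30 and 0.21), Usp18 by 1.39 ± 0.17 and Bst2 by 0.90 ± 0.17. Isg15 was not called without the WT ATV:4D9 mouse of pool 2. Mean Isg15 was 131 CPM in WT and 330 CPM in AppSAA mice there. Pnpt1 did not pass (0.10 ± 0.10, adjusted p = 0.991).

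Cluster 5 may have been formed in part by these genes, so the levels inside it may be those of cells grouped partly by these levels. How far that sets the differences within it was not tested. Members made up 1.82% ± 0.12 of the cluster's UMIs in WT ATV:4D9 and 1.71% ± 0.14 in AppSAA ATV:4D9 mice, ranges that overlapped. There 5 members stood higher in AppSAA mice and 4 lower, where 3.64% of all genes were higher and 2.79% lower. The higher ones were Ifi27l2a (1.90 ± 0.19, adjusted p = 3.25e-07), Oas1g (0.92 ± 0.27), Oas3 (0.60 ± 0.16), Ifitm3 (0.56 ± 0.17) and Lgals3bp (0.54 ± 0.12). The lower ones were Cmpk2 (-0.63 ± 0.18), Pnpt1 (-0.46 ± 0.12), Ifit2 (-0.43 ± 0.13) and Mx1 (-0.40 ± 0.11). This count was 26 with the pool as a block (14.7% of all genes) and 14 without the filter on low counts, and it was 3 without the WT ATV:4D9 mouse of pool 3 or pool 4 or the AppSAA ATV:4D9 mouse of pool 3, and 4 without that of pool 4. Of the 9, Ifitm3, Oas1g, Oas3, Ifit2, Mx1 and Pnpt1 each lost their call when 1 of several single mice was left out. Isg15 (-0.31 ± 0.19), Ifit3 (-0.39 ± 0.18), Usp18 (-0.40 ± 0.14), Oasl2 (0.10 ± 0.11) and Bst2 (0.17 ± 0.16) were not called. With the pool as a block Isg15 (adjusted p = 0.027), Ifit3 (0.0107) and Usp18 (0.00297) were called lower in AppSAA mice.

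Between ATV:4D9 and ATV:ISO in AppSAA mice, 26 members rose in cluster 5 and Slfn8 fell by 0.30 (SE 0.11, adjusted p = 0.0351), where 14.6% of all genes rose and 12.4% fell. Oasl1 rose by 1.53 ± 0.22, Rsad2 by 1.36 ± 0.20, Isg15 by 0.95 ± 0.20, Bst2 by 0.80 ± 0.16, Usp18 by 0.76 ± 0.15, Ifitm3 by 0.57 ± 0.17 and Ifit3 by 0.56 ± 0.18, while Oasl2 (0.27 ± 0.11, adjusted p = 0.0761) was not called, but was with the pool as a block (adjusted p = 0.0206). Ifitm3 and Ifit3 were not called without the AppSAA ATV:ISO mouse of pool 3 or the AppSAA ATV:4D9 mouse of pool 1, nor Slfn8 in 5 of the 8 fits that left out a mouse. In all, 27 members were called, 38 with the pool as a block (34.3% of all genes), and 16 without the AppSAA ATV:ISO mouse of pool 3. Only 1 WT ATV:ISO mouse had 20 cells of cluster 5, so no test within it was run for ATV:4D9 in WT mice.

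Of the other listed genes of the pathway 34 could be tested. They were 1 ligand (Ifnb1) and receptors, kinases, transcription factors, negative regulators and sensors. With ATV:4D9 12 rose and 14 fell in WT mice, near the shares of all genes (30.8% and 32.5%), and 16 rose and 8 fell in AppSAA mice (27.9% and 27.1% of all genes). With genotype under ATV:ISO 6 rose and 7 fell, also near the background (14.4% and 13.7%). Under ATV:4D9 14 rose and 0 fell (7.84% and 3.98%), and in the interaction 11 were called higher and 0 lower (3.79% and 5.35%). Between 4D9 and ATV:ISO 0 were called by edgeR.

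The ligand Ifnb1, interferon-β, was sparse but clearly moved. It stood at 0.233, 0.0, 0.358 and 0.353 CPM in WT ATV:ISO mice (21 UMIs in all), at 2.80, 2.12, 2.80 and 2.51 CPM in WT ATV:4D9 mice (679 UMIs) and at 7.44, 4.93, 8.23 and 4.09 CPM in AppSAA ATV:4D9 mice (1655 UMIs). The AppSAA ATV:ISO and 4D9 mice stayed between 0.111 and 0.457 CPM. Ifnb1 rose by 3.50 ± 0.43 with ATV:4D9 in WT (adjusted p = 5.76e-07) and by 4.33 ± 0.34 in AppSAA mice (adjusted p = 1.81e-09), and it did not pass the test between genotypes under ATV:ISO (0.59 ± 0.54). In cluster 5 its mean was 33.7 ± 11.8 CPM in WT ATV:4D9 and 21.5 ± 6.5 CPM in AppSAA ATV:4D9 mice, against at most 2.58 CPM in any other cluster of these groups. Ifnb1 was the only one of 7 listed ligands that could be tested. Ifna1, Ifna2, Ifna4, Ifnl2 and Ifnl3 were absent from the deposited table, so no change of theirs could be seen. Interferon-γ (Ifng) had at most 7 UMIs in a group and was not tested.

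The transcription factor Irf7, a target and amplifier of the response, rose by 2.08 ± 0.27 in WT and 3.16 ± 0.27 in AppSAA mice with ATV:4D9. Stat2 rose by 0.34 ± 0.10 and 1.35 ± 0.10, with a called interaction of 1.01 ± 0.14 (adjusted p = 0.00014). The nucleic acid sensor Zbp1 rose by 2.36 ± 0.25 and 2.88 ± 0.23. The receptor chain of interferon-γ, Ifngr1, fell in both genotypes, by 1.01 (SE 0.12) in WT and by 0.57 (SE 0.12) in AppSAA mice.

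Members with the ISRE core in front of the gene had the larger median changes. They had a median log2 fold change with ATV:4D9 of 1.68 in WT and 2.46 in AppSAA mice (19 members), and those without it had 1.07 and 1.64 (27 members). Both kinds spread widely, from -0.37 (Slfn8) to 3.01 (Rsad2) with the core and from -0.49 (Dtx3l) to 2.92 (Oasl1) without it in WT mice, and this is a description of the members without a test.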

How the data were processed

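Single-cell RNA-seq of CD11b+ brain cells (10x Genomics 3′ kit v3.1, CellPlex tags, 4 pools) was used as deposited. Per the labels, reads were mapped with Cell Ranger 6.1.1 to mm10, and the authors clustered cells with Seurat. The deposited matrix holds UMI counts per gene and cell without normalization. Each mouse, its group, pool and cluster come from the deposited cell annotation, which also gives the percent of mitochondrial counts per cell as the authors computed it. Its ATV-DNP02 group was read as ATV:ISO, since it is the only isotype arm. No columns of the authors' comparisons were used. The filters that the authors applied to cells were kept, no doublet caller was run, and the 1089 cells with a barcode shared between pools were kept.

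Counts were summed per mouse, over all cells and per cluster (at least 20 cells), and fitted with edgeR 4.0.16 in R 4.3.3 (filterByExpr with all 5 groups, TMM, quasi-likelihood test, Benjamini-Hochberg over all genes tested, called under 0.05). CPM are counts scaled to a common library total per mouse. Intervals of 95% are log2 fold changes ± the normal quantile times the SE. In edgeR fits the SE was taken as the size of the log2 fold change over the square root of the F statistic. The filter asked for about 0.208 CPM. On simulated counts for 14058 genes in WT ATV:4D9 against WT ATV:ISO, 83 of 100 genes changed 2-fold and 54 of 100 changed 1.5-fold were called. The simulated mice were drawn independently, while the real mice correlated within pools. The rates were not obtained for the other comparisons or for sums within a cluster. Alternatives were RLE size factors, library totals without TMM (added after the data were seen), no filter, DESeq2 1.42.0, limma-voom (limma 3.58.1, the study's method), the pool as a block, sums without cluster 5, cells of 1000 to 25000 UMIs, 50 cells per cluster sum, and leaving out each mouse.

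Each pool held 1 mouse per group, per the labels, so pool numbers pair mice. Deviations of same-pool mice from their group means correlated in 40 of 40 pairs (r 0.299 to 0.866 over 6741 genes). Where no text says otherwise, each mouse is taken as 1 animal.

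The members, roles and pathway lists were chosen with earlier results of these data known, and not every gene of the pathway lists is reported here. Genes named with values were the 2 with the highest mean CPM in each role, the 3 called members with the largest rise and fall in each comparison, called members against their role's direction, the 5 largest and 3 smallest ratios of cluster 5 to cluster 0, and Ifit3, Isg15, Oasl2, Ifitm3, Bst2 and Usp18. The largest rises and falls were taken among members with a mean CPM of at least 1. Others are named as exceptions, after their values were seen. Promoter letters come from RefSeq (GRCm38.p6), positions from GENCODE M21 (GRCm38), and copies were found with blastn 2.17.0 (85% identity over 500 bases).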

Additional observations from a re-analysis of the deposited data

Results flagged for a closer look

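Slfn5 stood at 134.7 CPM in the AppSAA ATV:4D9 mouse of pool 3, far from the other mice of its group, which began at 94.9 CPM. It was the 1 of 185 gene and group combinations of 4 mice in which an end value stood apart by Dixon's criterion, and chance alone flags about 1 in 20.

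The log2 fold change with ATV:4D9 was higher in AppSAA than in WT mice for 14 named members by the interaction test (edgeR, log2 scale). Of these Slfn8, Dtx3l, Trim21 and Uba7 fell in WT mice, and Uba7, Oas2, Ifi213 and Mx1 lost the call under some alternatives. The differences were 1.53 for Oas2, 1.53 for Ifi213, 1.29 for Ifi209, 1.13 for Slfn8, 1.04 for Mx2, 1.00 for Parp14, 0.95 for Mx1, 0.95 for Dtx3l, 0.81 for Trim30a, 0.72 for Herc6, 0.70 for Trim21, 0.65 for Uba7, 0.64 for Znfx1 and 0.43 for Lgals9.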

How the results depend on the processing

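Over all cells, the counts of called members stayed within 1.5 times their value under every alternative for the antibody and genotype comparisons, at 45 to 54 (WT ATV:4D9 against ATV:ISO), 19 to 30 (AppSAA against WT with ATV:ISO), 53 to 56 (AppSAA ATV:4D9 against ATV:ISO or 4D9), 54 to 56 (AppSAA against WT with ATV:4D9) and 0 (4D9 against ATV:ISO). Leaving out 1 mouse gave 48 to 51, 19 to 24, 55, 55, 55 and 0. Scaling by library totals instead of TMM, added after the data were seen, gave 48, 25 (20 higher and 5 lower), 55, 55, 54 and 0, and 30 in the interaction. Under it Isg15 was no longer called between AppSAA and WT mice with ATV:ISO, nor was Parp14 with ATV:4D9 in WT mice or Uba7 in the interaction, and Isg15 and Ifit3 were called in the interaction. The interaction was less stable, with 25 members called as reported, 40 with the pool as a block, 16 without the cells of cluster 5 and 19 to 39 when 1 mouse was left out (39 without the WT ATV:4D9 mouse of pool 1). Within cluster 0, ATV:4D9 against ATV:ISO in WT mice gave 5 with the pool as a block, 1 without the filter and 0 to 1 when 1 mouse was left out. AppSAA against WT with ATV:ISO gave 22 with the block and 2 to 10, and ATV:4D9 against ATV:ISO in AppSAA mice gave 21 and 6 to 10. A minimum of 50 cells could not be run for the last, since fewer than 3 mice kept enough cells. Leaving out a mouse gave 36 to 41 in cluster 1 and 39 to 47 in cluster 2. In cluster 5, ATV:4D9 against ATV:ISO in AppSAA mice gave 16 to 29, and AppSAA against WT with ATV:4D9 gave 14 without the filter, 26 with the pool as a block and 3 to 13. The pool as a block lost no call in any comparison. Over all cells the share of all genes called with the block is given only for the interaction. There it was 30.5%, against 3.79% higher and 5.35% lower as reported. The other block counts over all cells describe the members only. Without Ifitm3, Bst2 and Lgals3bp the remaining members made up 0.136% (WT ATV:ISO), 0.232% (WT ATV:4D9), 0.162% (AppSAA ATV:ISO), 0.149% (AppSAA 4D9) and 0.535% (AppSAA ATV:4D9) of UMIs, in the same order of groups. With the finer clustering, 10.7%, 25.8%, 14.5%, 10.8% and 49.7% of member UMIs lay in the matching cluster, in the same group order (up to 54.5% in an AppSAA ATV:4D9 mouse). Where a value moved the cause was not tested, apart from the fewer mice or cells that leaving some out brings. No value called in the main fit changed its direction. With library totals, however, 5 members were called lower between AppSAA and WT mice with ATV:ISO, where the main fit called 0 lower. All 56 members had counts enough for a test in sums over all cells, but not in every single cluster.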
